A study of Mus musculus with 50 samples.

Results

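The extracellular matrix and integrin genes of induced hemogenic endothelial cells (iHECs) were described as a set of 57 of the 11879 gene rows of the TPM table (a transcript abundance scaled to gene length and to one total per cell). The members were chosen by symbol: collagen chains (Col), laminin chains (Lam), numbered integrin subunits (Itga, Itgb), matrix metalloproteinases (Mmp) and their tissue inhibitors (Timp), with Nid1, Nid2, Fn1, Sparc and Hspg2. Itga2b was left out, since it encodes CD41, a marker of the sort. The rule used the symbols and no measured value, although earlier results of these data were known when it was written. Of the 57, 4 matched by symbol alone: Col4a3bp encodes a ceramide transfer protein, and Itgb1bp1, Itgb1bp2 and Itgb3bp encode proteins that bind integrin tails or share a name with such proteins.

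The series held 50 single mouse cells of 1 group, made in culture from C57BL/6 embryonic stem cells with a Runx1 cassette in Rosa26 that doxycycline switches on (iRunx1). All 50 cells carried the cassette and came from cultures given doxycycline, so no cell without induction served as a control. The cells had been sorted as CD31+CD41lowCD45−c-kit+CD201high, and the labels named no clone, culture or animal that would give replicates. Values below are therefore spreads over cells, no test over replicates was made, and depth is unknown from TPM.

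A basement membrane is a thin sheet of matrix on which endothelial cells rest. Its networks are built of type IV collagen and of laminin trimers, which nidogens and the heparan sulfate proteoglycan perlecan (Hspg2) tie together. Cells hold on to it through integrins, each a pair of 1 α and 1 β subunit, and remodel it with metalloproteinases that TIMP proteins block. Runx1 drives the change of hemogenic endothelium into blood, in which cells round up and leave the endothelial layer.

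The labelled endothelial identity was met by its markers. All 9 endothelial markers, such as Cdh5 and Pecam1, passed TPM 1 in 45 or more of the 50 cells, while Ptprc, which encodes CD45, was listed at 0 in every cell. Pecam1 encodes CD31, and the cells had been sorted as CD31+ and CD45−, so Pecam1 and Ptprc are no independent check of the label. Of the 8 blood markers, 3 were nonetheless in most cells, Lcp1 in 49, Laptm5 in 48 and Was in 28, and the list summed to between 17.9 and 2266 TPM with a median of 628. Markers of mesenchymal cells summed to at most 84.2 TPM in a cell (5 of 9 with a row, Pdgfrb and Col3a1 at 0), those of smooth muscle to at most 26.2 (3 of 7, Acta2 above TPM 1 in 0 cells) and those of epithelium to at most 9.90 (3 of 6, Krt8 and Krt18 at 0). Markers of extraembryonic endoderm, a lineage that also lays down much basement membrane, summed to between 0.48 and 386 TPM (7 of 13 with a row, Krt8 and Krt18 at 0). Of these, Sox17, which arterial endothelium also expresses, was above TPM 1 in 36 cells, Dab2 and Gata6 in 27 each and Gata4 in 16. Cells had between 2400 and 8615 genes above TPM 1, with a median of 6224, and the lowest was cell 4-6 by the 2 numbers of its title.

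Col4a1 and Col4a2, the chains of the common type IV collagen trimer, lie head to head. RefSeq places the start of Col4a1 on the minus strand at position 11312826 of chromosome 8 (GRCm38.p6) and that of Col4a2 on the plus strand at 11312805, and the starts in GENCODE are the same. The stretch shared by both starts, chr8:11312805-11312826, is shown because these genes had the highest correlation of the member pairs compared. It is 22 bases long and is given on the plus strand, with a GGGCGG match (a GC box) in capitals.
Col4a1-Col4a2: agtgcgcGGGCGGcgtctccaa

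The 4 stretches before the RefSeq starts of the members with the lowest Spearman correlation with Runx1, among those above TPM 1 in 20% of cells or more, are shown next (Lamb1, Timp3, Timp1 and Mmp15, all on the plus strand of GRCm38.p6, values below). Capitals mark matches to the GC box, GGGCGG or CCGCCC, except that the match of Timp3 begins 15 bases before the RefSeq start and runs past the end of its stretch, which is in lower case throughout. Each stretch begins 250 bases before the RefSeq start and ends no more than 30 bases past the start in GENCODE. They lie at chr12:31265043-31265263, chr10:86300162-86300401, chrX:20869916-20870165 and chr8:95352046-95352295.
Lamb1: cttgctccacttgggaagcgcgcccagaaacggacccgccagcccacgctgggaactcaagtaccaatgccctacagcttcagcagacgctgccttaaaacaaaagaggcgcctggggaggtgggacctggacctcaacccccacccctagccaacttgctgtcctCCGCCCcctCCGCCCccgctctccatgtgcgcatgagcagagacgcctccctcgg
Timp3: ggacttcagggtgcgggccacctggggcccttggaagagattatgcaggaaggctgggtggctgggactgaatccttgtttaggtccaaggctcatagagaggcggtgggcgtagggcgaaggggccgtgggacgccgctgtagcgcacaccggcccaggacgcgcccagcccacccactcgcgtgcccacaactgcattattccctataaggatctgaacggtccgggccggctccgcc
Timp1: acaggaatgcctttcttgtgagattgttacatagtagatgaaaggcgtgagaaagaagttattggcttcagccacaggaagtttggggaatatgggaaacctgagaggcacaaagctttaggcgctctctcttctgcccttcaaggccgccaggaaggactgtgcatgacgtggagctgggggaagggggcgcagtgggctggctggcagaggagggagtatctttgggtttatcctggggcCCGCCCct
Mmp15: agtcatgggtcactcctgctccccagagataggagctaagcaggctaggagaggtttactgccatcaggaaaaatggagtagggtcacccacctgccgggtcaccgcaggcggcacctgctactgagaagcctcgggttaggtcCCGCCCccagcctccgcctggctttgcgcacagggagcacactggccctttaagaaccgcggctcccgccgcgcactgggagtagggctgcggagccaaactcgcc

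TGTGGT, the core that Runx proteins bind, was searched for on both strands, as TGTGGT or ACCACA, in the 250 bases before the start. It was found in 0 of the 4 windows of these genes, in 6 of 46 windows of 42 members with an entry (13.0%), in 10.9% of windows of genes in the table and in 14.0% of all 32851 promoters. The members that held it were Col17a1, Col18a1, Itga3, Itga4, Mmp14 and Mmp23. A GC box stood in all 4 windows, in 58.7% of members' windows, in 57.5% of windows of genes in the table and in 32.7% of all promoters. TATAAA, on either strand, was in 4 of 46 members' windows (8.70%), against 6.39% for genes in the table and 12.4% for all promoters. The 4 were those of Col11a2, Col13a1, Col17a1 and Col3a1, none of which was above TPM 1 in more than 1 cell. A letter match is not a binding site, and its lack says nothing about the factor beyond this window. Of the holders of the Runx match, Mmp14 and Col18a1 had a rho with Runx1 of 0.20 and 0.02, and Itga3 one of −0.14, while the others were each above TPM 1 in at most 1 cell. Mmp14 is shown as the holder with the highest rho among these 3, at chr14:54431348-54431597 on the plus strand, with its match in capitals, 114 bases before the start.
Mmp14: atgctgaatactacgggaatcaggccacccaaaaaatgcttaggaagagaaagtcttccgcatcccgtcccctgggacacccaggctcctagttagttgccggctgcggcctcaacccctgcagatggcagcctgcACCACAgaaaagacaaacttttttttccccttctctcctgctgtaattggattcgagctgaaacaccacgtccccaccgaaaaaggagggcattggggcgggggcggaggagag

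Most members fell into 2 kinds, those found in nearly all cells and those found in few. Of the 57 rows, 24 passed TPM 1 in 50% of cells or more, against 53.2% of all rows of the table. In all, 6 members were above that level in every cell: Col18a1, Col4a1, Col4a2, Itgb1, Sparc and Timp3. In contrast, 13 were above it in 1 to 3 cells and 6 in 0 cells, which allows a share of up to 6% by the limit of 3 counts and of up to 7.11% by the two-sided exact interval. Col11a1, Col11a2, Col3a1, Lamb3 and Mmp25 were listed at 0 throughout, and Itga4 reached 0.29 TPM in 1 cell. A median cell had 25 members above TPM 1 (range 9 to 35), and this number moved with the number of all genes found in the cell (rho = 0.60 over 50 cells).

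**Figure D1:**
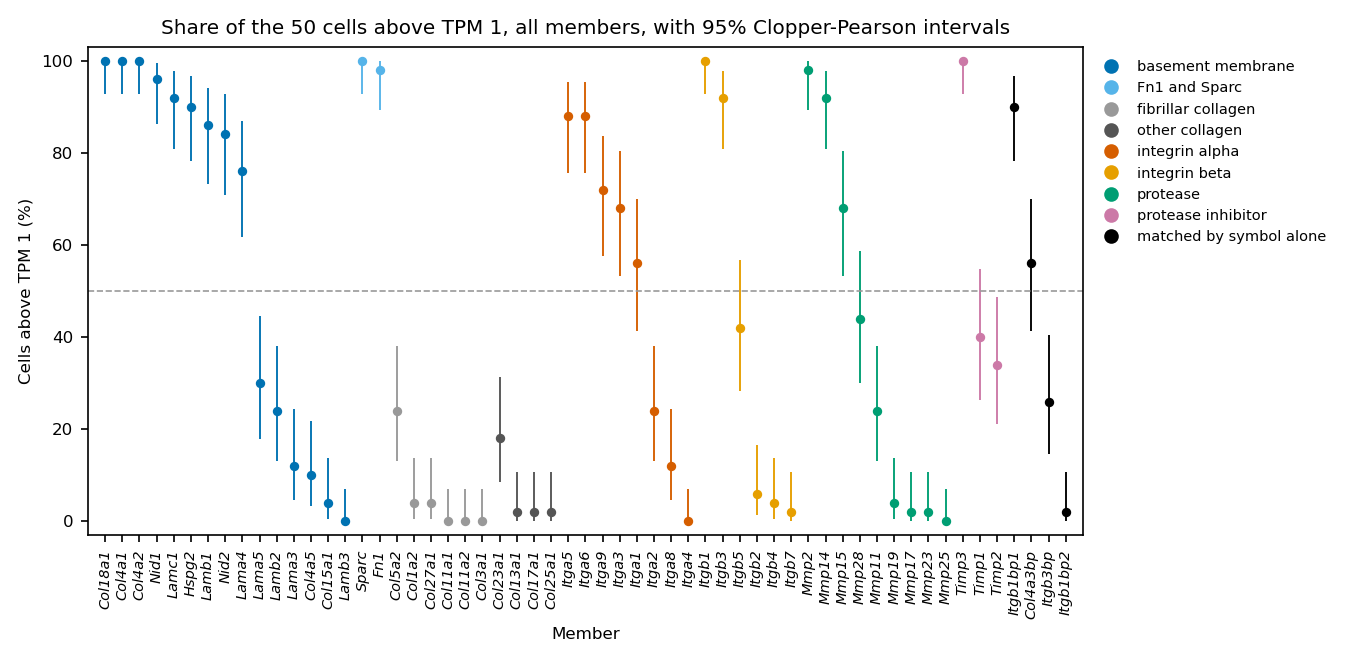
Percentage of the 50 cells with TPM above 1 (y axis) for each of the 57 members (x axis), coloured by role, with bars for exact 95% Clopper-Pearson intervals over cells. Basement membrane rows lie mostly above the dashed line at 50%, whereas all fibrillar and other collagens lie at or below 24%.

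Together the members carried a median of 4303 TPM per cell (range 445 in cell 4-6 to 12848), or 0.45% of a cell's transcripts. Sparc, a collagen-binding matricellular protein, was the most abundant member in 50 of 50 cells and made up a median of 47.7% of this sum. Its TPM was 130 in the lowest cell, 2000 in the median cell and 10068 in the highest. Without Sparc the median sum was 2226 TPM. Fn1, which encodes fibronectin, was at 0.07 TPM in the lowest cell, 119 in the median cell and 660 in the highest, and was above TPM 1 in 49 cells.

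The 15 basement membrane rows had a median share of 84% of cells. Col18a1, the source of endostatin, was their most abundant row at 42.7 TPM in the lowest cell, 393 in the median cell and 1006 in the highest. Col4a1 was at 17.6, 130 and 1079 TPM in the lowest, median and highest cell, and Col4a2 at 2.83, 89.9 and 335. Both type IV chains, which the trimer needs together, passed TPM 1 in each of the 50 cells (95% interval 92.9% to 100%). Col4a1 was the higher chain in 39 cells, by a median of 1.52-fold over all cells. Of the other type IV chains, Col4a3, Col4a4 and Col4a6 had no row, and Col4a5 was above TPM 1 in 5 cells. Col15a1, a collagen of the outer basement membrane, was above it in 2.

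Laminin rows showed which trimer a cell could build. Lama4, the α chain of vessel laminin, was above TPM 1 in 38 cells, with 0, 23.1 and 225 TPM in the lowest, median and highest cell. Lamb1 was above it in 43 cells (0, 35.3 and 194 TPM) and Lamc1 in 46 (0, 15.1 and 127 TPM). All 3 chains together were above TPM 1 in 34 cells, or 68% (95% interval 53.3% to 80.5%), and in these 34 cells Lamc1 was the lowest chain in 19, Lamb1 in 9 and Lama4 in 6. The endothelial alternative with Lama5, a chain of mature vessels, was complete with Lamb1 and Lamc1 in 12 cells, since Lama5 itself passed TPM 1 in 15 cells, at up to 14.0 TPM. Lamb2 was found in 12 cells, Lama3 in 6 and Lamb3, both chains of skin laminin, in 0.

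The linkers were common. Nid1 was above TPM 1 in 48 cells at a median of 78.1 TPM (range 0.16 to 510), Nid2 in 42 at 58.1 (range 0 to 395) and Hspg2 in 45 at 10.0 (range 0 to 78.8). In contrast to these sheet-forming genes, the 10 collagens with a row outside the basement membrane list were rare. The summed level of these 10 was 0.60 TPM in the median cell and 64.3 in the highest. Col1a1, Col5a1, Col6a1, Col6a2 and Col6a3 had no row and could not be read. Among fibrillar collagens, Col5a2 was above TPM 1 in 12 cells, Col1a2 in 2 and Col27a1 in 2. Among the rest, Col23a1, a transmembrane collagen, was found in 9 cells, and Col13a1, Col17a1 and Col25a1 in 1 cell each.

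**Figure D2:**
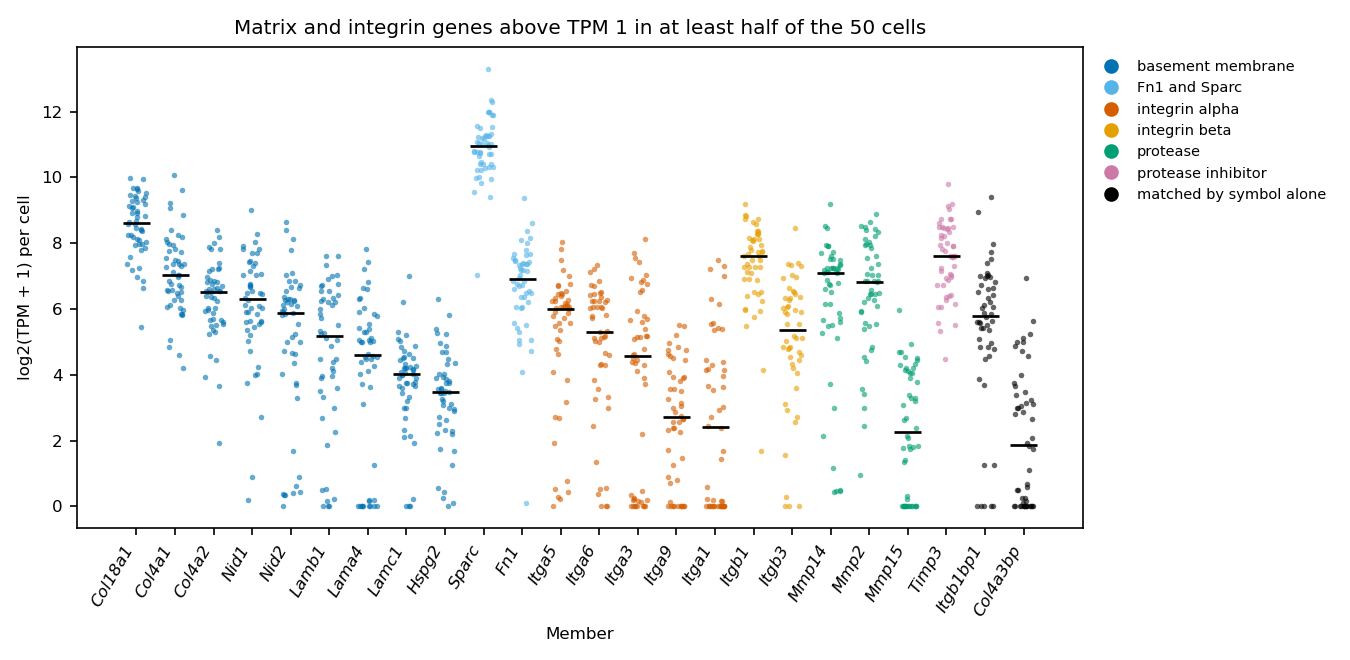
Level per cell, as log2(TPM + 1), of the 24 members above TPM 1 in at least 50% of the cells, with 1 point per cell and a black line at the median of 50 cells. Sparc stands above the others at a median of 2000 TPM, and Lama4, Itga3, Itga9, Itga1 and Mmp15 include a cluster of cells at or near 0.

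Integrin subunits were led by Itgb1, the partner of most matrix-binding α chains, at 2.19 TPM in the lowest cell, 195 in the median cell and 589 in the highest. Itga5, whose pair with Itgb1 binds fibronectin, was above TPM 1 in 44 cells (0, 63.5 and 262 TPM), and Itga6, whose pair binds laminin, also in 44 (0, 38.8 and 161 TPM). Each of these pairs was complete in 44 of 50 cells, or 88% (95% interval 75.7% to 95.5%), and both were complete in the same cell in 41. Itga9 followed in 36 cells (median 5.52 TPM), Itga3, a second laminin receptor chain, in 34 (median 22.7) and Itga1, a collagen receptor chain, in 28 (median 4.33). Itga2 was above TPM 1 in 12 cells and Itga8 in 6. The level of Itgb1 was above the summed level of its α partners, Itgav included, in 26 of 50 cells.

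The β3 chain, which pairs with αv on endothelium and with CD41 on megakaryocytes, was also common. Itgb3 was above TPM 1 in 46 cells, with 0, 40.5 and 348 TPM in the lowest, median and highest cell. Itgav, which the symbol rule does not take in, was above it in 41 cells at a median of 14.3 TPM, so that αv and β3 were found together in 38 cells. Itga2b, the CD41 chain left out by the rule, was above it in 40 cells at a median of 42.98 TPM (up to 609), and stood beside Itgb3 in 38 cells as well. Itgb5 was found in 21 cells and completed αvβ5 in 20. Leukocyte integrin chains were rare: Itgb2 was above TPM 1 in 3 cells, Itgb7 in 1, Itga4 in 0, and Itgal and Itgam, which the rule does not take in, in 2 and 0. The epithelial chain Itgb4 was found in 2 cells and stood beside Itga6 in 1. Of 15 integrin pairs with rows for both chains, the pair of CD41 and β3 not counted, a cell had a median of 7 complete (range 0 to 10).

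Matrix and receptor rows could also be read in the same cell. Fn1 was above TPM 1 together with Itga5 and Itgb1 in 43 cells (86%). The laminin chains Lama4, Lamb1 and Lamc1 were above it together with Itga6 and Itgb1 in 32 cells (64%).

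Among proteases, Mmp14, a membrane-anchored collagenase, and Mmp2, a gelatinase that cleaves type IV collagen, were the common rows. Mmp14 was above TPM 1 in 46 cells, at 0.37, 135 and 588 TPM in the lowest, median and highest cell. Mmp2 was above it in 49 cells, at 0.94, 113 and 467 TPM. Both were above TPM 1 in the same 46 cells, and their levels had a rho of 0.40. Timp2, which bridges Mmp14 to the Mmp2 precursor, was above TPM 1 in 17 cells and joined both in 16. Mmp15, close to Mmp14 in structure, was found in 34 cells (median 3.79 TPM), Mmp28 in 22, Mmp11 in 12, Mmp19 in 2, and Mmp17 and Mmp23 in 1 each.

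Timp3, the inhibitor that stays bound to matrix, was at 21.1, 195 and 881 TPM in the lowest, median and highest cell. It exceeded both Timp1 and Timp2 in 48 of 50 cells. Timp1 was above TPM 1 in 20 cells, reaching 168 TPM. All 3 inhibitors were above TPM 1 together in 5 cells.

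Levels of many members were correlated with each other over the cells. Among the 22 members in at least 50% of the cells, leaving out those matched by symbol alone, 76 of 231 pairs (32.9%) had a Spearman rho of at least 0.3, against 4.77% of 19993326 pairs of rows that passed the same level. The median rho was 0.22 for member pairs and 0.04 for all pairs. Within the 9 basement membrane members the share was 19 of 36 pairs (52.8%). All points share the 50 libraries and their unknown depths, and members share cells, so these values are descriptions. The part of depth in them was not tested, since TPM keeps none.

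The pair of Col4a1 and Col4a2, which start 21 bases apart, had a rho of 0.73, the highest of the 231, with 0.57 to 0.76 within the 4 first title numbers. Hspg2 and Lamb1 followed at 0.58, Lamb1 and Timp3 at 0.55, Lama4 and Nid1 at 0.54, Fn1 and Sparc at 0.53, and Col4a1 and Fn1 and Lamb1 and Mmp15 at 0.52. With the number of genes per cell held constant, these values changed by little, as for Col4a1 and Col4a2 at a partial rho of 0.73 and Hspg2 and Lamb1 at 0.58. Lamb1 thus stood in 3 of the 7 closest pairs. Hspg2 and Lamb1 ranged from 0.50 to 0.90 within the numbers and Lamb1 and Timp3 from 0.32 to 0.82, but Lama4 and Nid1 from 0.16 to 0.81 and Fn1 and Sparc from 0.08 to 0.82. Mmp2 had pairs of both signs, 10 positive and 11 negative of 21. Its rho was 0.40 with Mmp14, 0.34 with Itga5 and 0.22 with Col18a1, and −0.22 with Itga6, −0.19 with Itga1, −0.18 with Timp3 and −0.16 with Nid1.

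**Figure D3:**
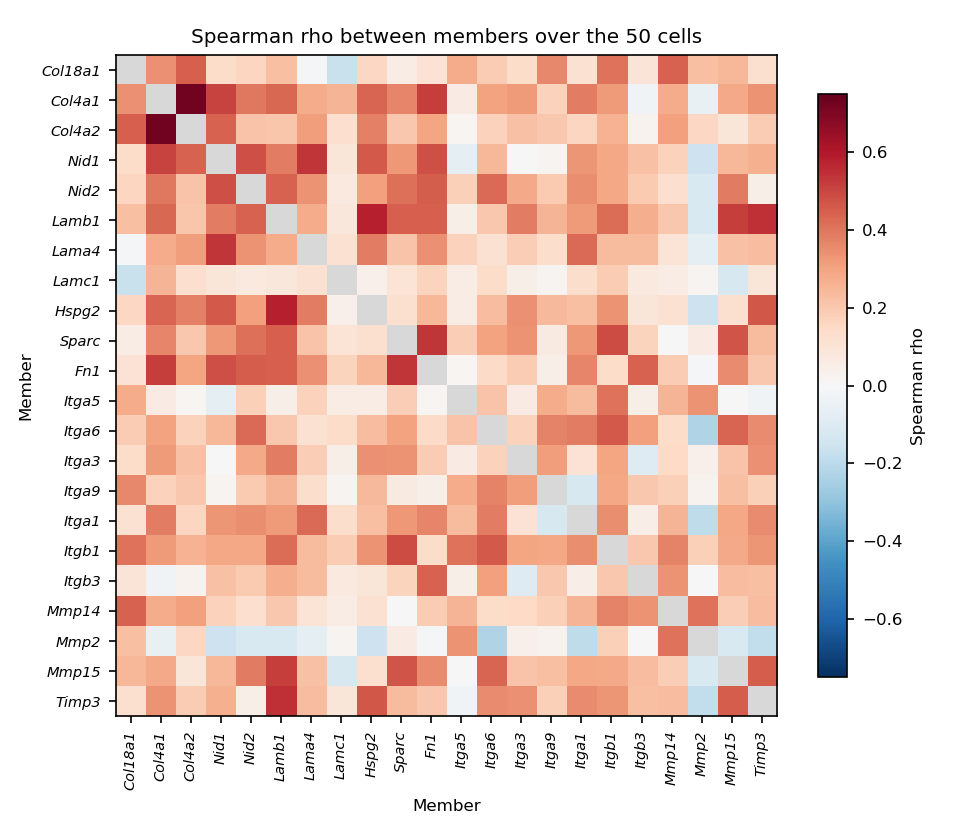
Spearman rho over the 50 cells between each pair of the 22 members found in at least 50% of the cells, from blue (negative) to red (positive), in the order of the plot of levels. The darkest square joins Col4a1 and Col4a2 (0.73), Lamb1 is red with Hspg2, Timp3 and Mmp15, and Mmp2 takes part in 11 of the 20 negative pairs.

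A single cell, cell 4-3, held the highest value of 7 of the 24 common members: Col4a1, Nid1, Nid2, Lamb1, Fn1, Itga3 and Itga1. No other cell held more than 2. Its basement membrane rows summed to 3363 TPM, against a median of 924 over all cells, and its number of genes above TPM 1 was 6095. Its Runx1 level was 11.5 TPM. Its levels of the endothelial marker Cdh5 (1168 TPM) and of the blood marker Coro1a (1690 TPM) were each the highest of the 50 cells. Without this cell the rho of Col4a1 and Col4a2 was 0.71, and the counts of members past the limits on rho with Runx1, given next, stayed at 4 and 0.

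The relation to Runx1 was then described over the 50 cells. Runx1 was at 0.16 TPM in the lowest cell, 132 in the median cell and 913 in the highest, and above TPM 1 in 43 cells. TPM does not separate transcripts of the cassette from those of the endogenous gene. Of the 57 members, 34 passed TPM 1 in 20% of cells or more and entered the comparison, as did 9103 rows of the table.

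In rank correlation more members lay below 0 than above it. Their median rho with Runx1 was −0.02, against 0.07 for all rows, and 21 of 34 (61.8%) were below 0, against 32.1% of rows. In all, 4 members (11.8%) had a rho of −0.3 or lower, namely Lamb1, Timp1, Timp3 and Mmp15, against 1.03% of all rows. Of the 34, 0 reached 0.3, whereas 6.49% of rows did. The level of Runx1 rose with gene number per cell (rho = 0.28), so partial values were taken with that number held constant. The same 4 members then lay at −0.3 or lower (2.19% of rows) and 0 of 34 at 0.3 or higher (3.45% of rows). Pearson's r of log2(TPM + 1), a measure added after the data were seen, gave another picture. By it 17 of the 34 members were below 0, against 26.6% of rows, and the median was 0.01, against 0.10. Lamb1 (−0.31), Timp1 (−0.35) and Mmp15 (−0.34) lay at −0.3 or lower (0.879% of rows), Timp3 was at −0.25, and Mmp2 (0.38) and Itgb3 (0.31) reached 0.3 (8.78% of rows).

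Lamb1 had a rho of −0.45, rank 3 from the lowest of the 9103 rows. Within the first title numbers it ranged from −0.66 to −0.21, and without any single cell from −0.51 to −0.42. The plot of Runx1 against Lamb1 showed Lamb1 from 0 to moderate levels in most cells rich in Runx1. Cell 3-12, at 567 TPM of Runx1, had 84.9 TPM of Lamb1, above the upper quartile of 79.9. Cells poor in Runx1 mostly had high Lamb1, with a few at or near 0. Timp1 had a rho of −0.36 (−0.48 to −0.09 within numbers), with 28 cells listed at 0. Timp3 had −0.34 (−0.58 to −0.11) and Mmp15 −0.33 (−0.48 to −0.15). All 4 were negative within every number. Without the cells of number 1 Timp3 was at −0.23, without those of number 4 Mmp15 was at −0.24, and without cells of fewer than 5000 genes they were at −0.30 (−0.295) and −0.28, so their place past the limit rests on those cells.

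**Figure D4:**
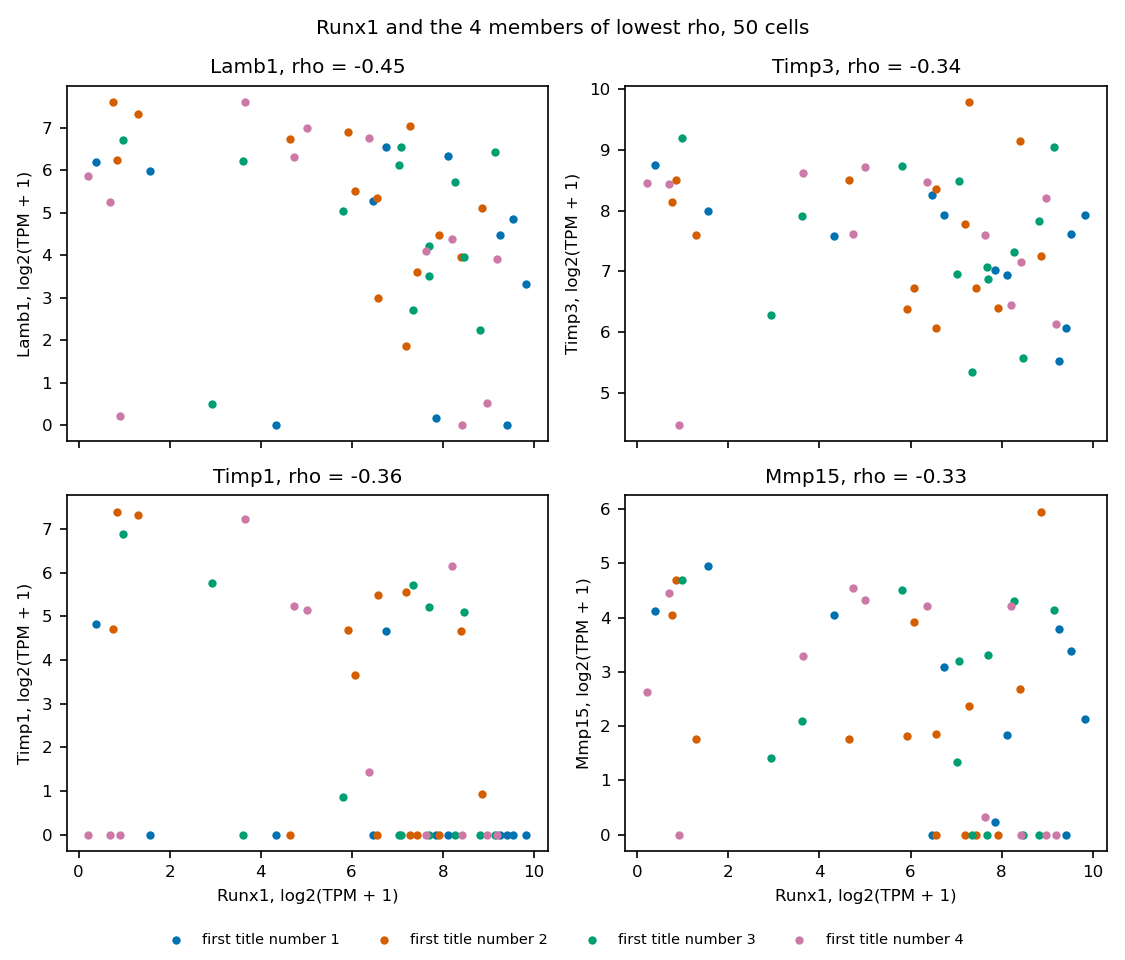
Level of Lamb1, Timp3, Timp1 and Mmp15 (y axes) against Runx1 (x axes), each as log2(TPM + 1), with 1 point for each of the 50 cells, coloured by first title number. Cells of low Runx1 mostly hold high Lamb1 and Timp3, cells of high Runx1 include both moderate levels and values at or near 0 of Lamb1, and the rho over 50 cells stands above each panel.

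After these came Hspg2 at −0.28, Sparc at −0.27, and Itga1 and Col4a1 at −0.19. At the other end stood Mmp2 at 0.25, Timp2 at 0.23, Mmp14 at 0.20, Itgb3 at 0.16 and Itgb3bp at 0.12. Thus the 3 inhibitors did not lie on 1 side, nor did the proteases Mmp15 and Mmp14. Without the cells of number 1, 7 members were at −0.3 or lower (Col4a1, Fn1, Itga3, Lamb1, Mmp15, Sparc and Timp1). Without those of number 2, Itgb3bp and Timp2 reached 0.3. Hspg2 joined the members at −0.3 or lower without number 3 (−0.35), Sparc took the place of Mmp15 without number 4 (−0.36), and Hspg2 (−0.31) and Sparc (−0.36) took those of Timp3 and Mmp15 without cells of fewer than 5000 genes. Itga8, above TPM 1 in 6 cells and so outside the 34, had a rho of −0.40.

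**Figure D5:**
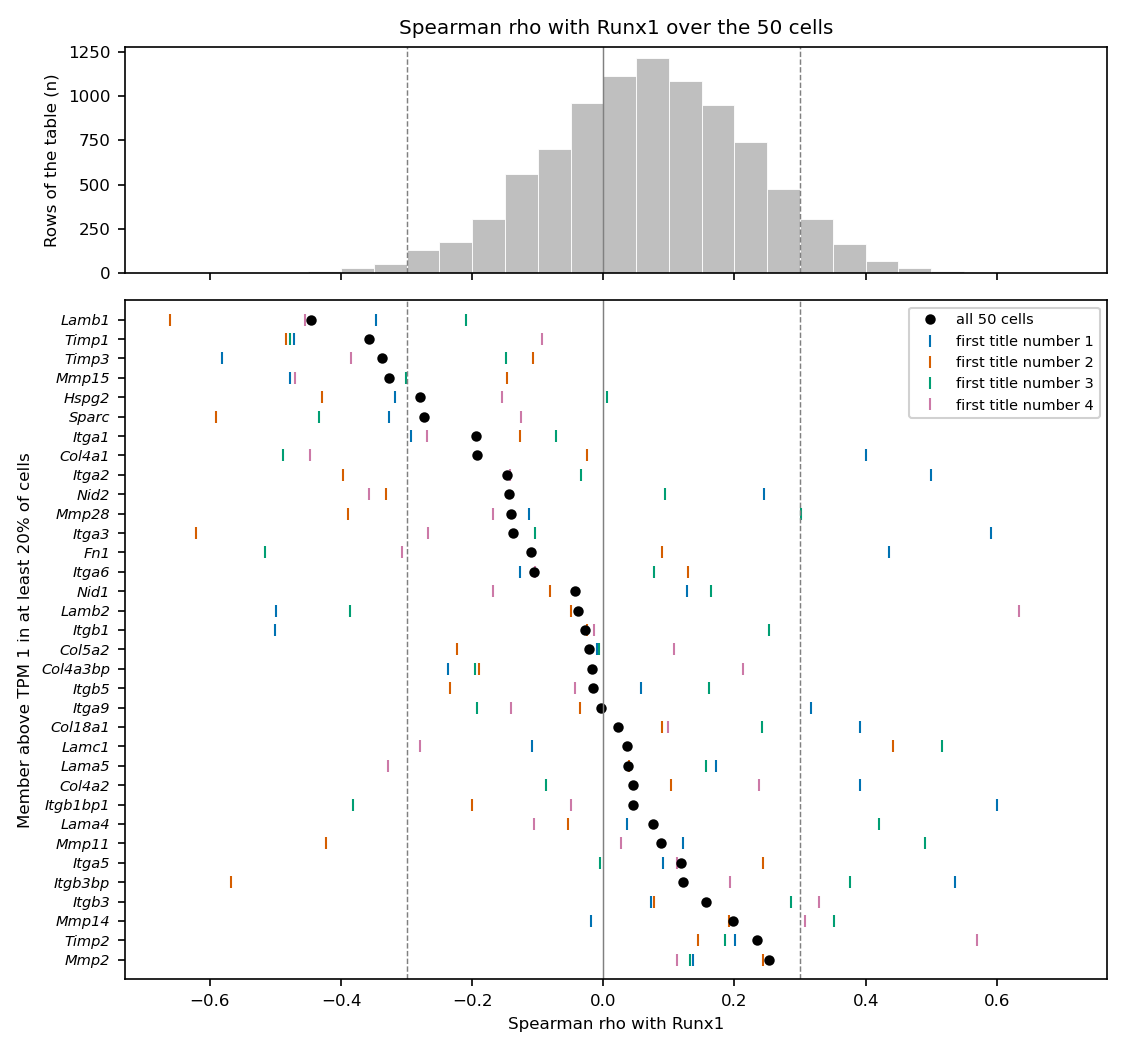
Spearman rho with Runx1 for 9103 rows of the table (upper histogram, number of rows per bin of 0.05) and for 34 members (lower part, black points for all 50 cells and coloured ticks for each first title number), with dashed lines at −0.3 and 0.3. The members run from −0.45 for Lamb1 to 0.25 for Mmp2, and the ticks of 24 members fall on both sides of 0.

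The summed TPM of all 57 members had a rho of −0.33 with Runx1 (−0.45 to −0.16 within the numbers), and without Sparc of −0.27. The summed TPM of the 15 basement membrane rows had a rho of −0.21 with Runx1, with −0.19 to 0.05 within the numbers, so that it was not as low within any of them. The summed TPM of the 14 integrin rows had a rho of −0.14. That of the integrin rows ran from −0.18 to 0.19 within the numbers, and from −0.22 to −0.09 with 1 number left out. On the log2(TPM + 1) scale, Pearson's r was −0.05 for the basement membrane sum and 0.13 for the integrin sum, so the integrin sum changed sign between measures. The 3 inhibitors summed gave −0.38 and the 9 proteases 0.19.

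Markers of other states moved with some of these members. The summed TPM of the 9 endothelial markers ranged from 608 to 7204 and had a rho of −0.28 with Runx1, 0.56 with Lamb1, 0.64 with Mmp15, 0.27 with Timp1 and 0.23 with Timp3. With that sum held constant, the partial rho with Runx1 was −0.36 for Lamb1, −0.31 for Timp1, −0.29 for Timp3 and −0.20 for Mmp15, while Mmp2 rose past the limit to 0.33 and Mmp14 was at 0.29. The extraembryonic endoderm markers, listed above, had a rho of −0.36 with Runx1 and 0.31 with Lamb1, although Dab2 (−0.31) and Gata6 (0.23) lay on opposite sides. With their sum held constant Lamb1 was at −0.38, Timp3 at −0.32, Timp1 at −0.28 and Mmp15 at −0.24. Megakaryocyte markers, 7 of 8 with a row and Itgb3 among them, summed to between 6.01 and 861 TPM and had a rho of 0.24 with Runx1. The sum of the blood markers had a rho of 0.15 with Runx1 and 0.05 with Lamb1. Singly, Laptm5 had a rho of 0.32 with Runx1, or 0.23 with the number of genes per cell held constant. Was (0.22), Coro1a (0.18) and Lcp1 (0.06) also lay above 0, but Cd53 (−0.08), Rac2 (−0.06) and Vav1 (−0.04) below it. Of 8 symbols of macrophage markers, 7 had a row, and the other, Adgre1, is another name of Emr1. Emr1 and Itgam were at 0, but Fcgr3 was above TPM 1 in 33 cells, Cd68 in 22, Lyz2 in 15 and Mrc1 in 14. The macrophage markers summed to between 0 and 1774 TPM. Their sum had a rho of 0.29 with Runx1, −0.35 with Lamb1, −0.27 with Mmp15, −0.25 with Timp3 and 0.06 with Timp1. Its part in the relation of these members to Runx1 was not tested. Singly, Fcgr3 (0.42) and Lyz2 (0.26) had a positive rho with Runx1, but Cd68 and Mrc1 (−0.19 each) a negative one.

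Genes that act with the members were counted from lists of the same pathways. Of 20 collagen-processing symbols, of which Lepre1 and P3h1 name the same gene, 15 had a row and 10 were in at least 50% of the cells. P4hb, a subunit of prolyl hydroxylase, led in 50 cells (median 371 TPM). The collagen chaperone Serpinh1 followed in 49 (27.1) and Pxdn, which crosslinks type IV collagen, in 49 (49.6). P4hb was the row of this list with a rho of −0.3 or lower with Runx1 (−0.31, with −0.49 to 0.14 within the numbers), 1 of 12 rows in at least 20% of cells against 1.03% of all rows, and 0 of 12 reached 0.3, against 6.49%. Of 21 integrin adaptors and kinases, 20 had a row and 15 were in at least 50% of the cells, with Ilk (median 187 TPM), Actn4 (168), Zyx (151) and Lims1 (123) in every cell. Fermt3 and Sharpin had a rho of 0.3 or higher with Runx1 (0.31 and 0.33), 2 of 17 adaptors in at least 20% of cells against 6.49% of rows, and 0 were at −0.3 or lower. With the number of genes per cell held constant Sharpin was at 0.28, and within the numbers it ran from −0.06 to 0.77. Of 25 other matrix and adhesion genes, 18 had a row and 8 were in at least 50% of the cells, led by Egfl7 in 50 cells (median 1044 TPM), Mmrn2 in 49 (111) and Emilin1 in 47 (107), all made by endothelium. None of these passed either limit with Runx1, and of the matrix genes that fibroblasts also make, Fbln2 and Postn were listed at 0 in all 50 cells while Fbln1 was above TPM 1 in 28, Fbn1 in 19 and Bgn in 14.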

How the data were processed

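Single-cell RNA-seq of 50 cells of 1 group was analysed. The authors amplified polyadenylated cDNA, with no molecular identifiers named, and the deposited values are TPM per gene and cell as they estimated them on mm10. The submitters' processing notes name HISAT2 2.1.0, SAMtools 0.1.19, StringTie 1.3.4 and bcl2fastq. How rows entered the table is not given in the sources used here. TPM keeps no depth, so an exact 0 is written as listed at 0.

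Shares of cells above TPM 1 have exact Clopper-Pearson 95% intervals, and 3 counts of 50 gave the limit of 6% for a count of 0. Both cover counting error over cells alone. Relations are Spearman's rho without p, and partial rho holds the number of genes above TPM 1 constant (Python 3.11.15, numpy 2.4.6, pandas 2.3.3, scipy 1.17.1, tested on simulated data). The first number of the titles (1 to 4, with 11 to 14 cells each), which the labels leave unexplained, was used to check values within it. Promoters came from RefSeq (GRCm38.p6, with an entry for 42 of 57 members) and further gene starts from GENCODE (GRCm38, the assembly that mm10 names).

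The members and lists were chosen with earlier results of these data known. Named with values were members in at least 50% of cells, subunits of their complexes, the most frequent rarer members of each role, and the 5 highest and 5 lowest in rho with Runx1. Itga8, cell 4-3 and rare members high in few cells were named after their values were seen. All cells were kept, without a search for doublets. Alternatives were other TPM levels, cells left out, rescaling without ribosomal protein rows and other measures of correlation.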

Additional observations from a re-analysis of the deposited data

How the results depend on the processing

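The labels put all cells in 1 group and tie none to a culture or clone, so no result carries an error over replicate cultures, and depth limits every share, since a transcript missed in a shallow cell reads as 0. No paired analysis was possible because all cells formed 1 group. Counting every value above 0 raised the median share of the basement membrane rows from 84% to 94% and the share of cells with Itga5 and Itgb1 from 88% to 98%, and a level of 10 TPM lowered the share with Lama4, Lamb1 and Lamc1 from 68% to 38%. The median summed TPM of the members was 5035 after rescaling without ribosomal protein rows and 2226 without Sparc, against 4303. The rho of Runx1 with summed basement membrane TPM was −0.31 without cells of fewer than 5000 genes, against −0.21, and Pearson's r was −0.05 (−0.047) with a pseudocount of 1 and −0.03 (−0.034) with 0.1. For summed integrin TPM it was 0.13 and 0.14, against a rho of −0.14. The number of members at a rho with Runx1 of −0.3 or lower was 7 without first title number 1, against 4, and the number at 0.3 or higher was 2 without number 2 and 2 by Pearson's r, against 0. The causes were not tested. The count of 24 members in at least 50% of the cells was 25, 21 and 20 at levels of 0, 5 and 10 TPM, within the 1.5-fold tolerance set for counts, and 24 under the others. The rho of Col4a1 and Col4a2 lay between 0.68 and 0.79. Leaving out cell 4-3, chosen after seeing the data, moved none of the 12 results. Of 35 members' shares, 10 rose beyond their interval at TPM above 0, and 4 and 8 fell at levels of 5 and 10. Without number 3 that of Col27a1 moved, and without number 4 or the cells of fewer than 5000 genes those of Fn1 and Mmp2, as did that of Mmp2 after rescaling.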

Other observations

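Some rare members were high in the few cells that held them. Itgb2, the shared chain of leukocyte integrins, reached 273 TPM in its highest cell and 34.7 in the next, and was listed at 0 in 47. Itgb7 stood at 61.6 TPM in 1 cell and at 0.48 in the next. Itga8 reached 187 and 74.1 TPM in its highest cells, and was listed at 0 in 38. Mmp11 reached 178 and 69.8 TPM, and Mmp19 52.7 and 42.8 TPM in the 2 cells where it was above TPM 1. Whether these values come from few amplified molecules was not tested, and the files hold no count of molecules.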
